A study of Caenorhabditis elegans with 2 samples.

Results

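The genes described here are ints-4 and ints-8, which encode subunits of the Integrator complex of Caenorhabditis elegans, and rpr-1, the gene of the RNase P RNA, which lies inside ints-8. These 3 of the 29435 annotated genes considered (19985 protein-coding genes and 9450 noncoding genes, without piRNA genes and pseudogenes) were chosen by the summits and signal values of chromatin immunoprecipitation peaks in and around them, so those positions and values are a description and carry no test. Summits were collected from 2000 bp upstream of each gene's start to 1000 bp past its end. The assay was ChIP-seq of CEH-82 (gene F45C12.2), a homeobox protein. The animals were whole L4 larvae, males and females pooled, of strain OP212, with unc-119(ed3) III and the transgene ddEx58, from which the protein is made with GFP and FLAG fused to its C-terminal end. Ex in such a name stands for an extrachromosomal array, but an insertion is also mentioned in the labels, so the form and copy number of the transgene are not known. Both samples, 2 biological replicates, share that genotype. No untagged or untransformed group and no control library was analysed here, so a peak below is a place where the authors' caller found signal, not a site shown to be bound by CEH-82. Because whole animals were used, the cells that gave the signal are not known.

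Integrator is a complex of many subunits that travels with RNA polymerase II. It holds an endonuclease that cuts nascent transcripts, which forms the 3' ends of small nuclear RNAs and ends transcription early at many protein-coding genes, as known mainly from human and fly cells. RNase P is a ribozyme with protein subunits that removes the 5' leader of precursor tRNAs, and its RNA subunit is usually made by RNA polymerase III. In animals, promoters of RNA polymerase III genes of this kind are often recognised by SNAPc, the complex that also binds the promoters of small nuclear RNA genes.

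On the build ce11 there were 4561 peaks in the list of replicate 1 and 8651 in that of replicate 2. The list from pooled reads had 15658, and like the replicates' lists it includes background. The authors' thresholded list, the set that passed their irreproducible discovery rate (IDR) procedure, had 57. The signal value of a peak is the authors' own number for it, on a scale that is not stated, so it is used only to rank peaks within a list. The percentile of a peak is the share of peaks in its list with a signal value no higher than its own. The median signal values were 2.66 in replicate 1, 2.84 in replicate 2 and 2.95 in the pooled list. The thresholded peaks of ints-4 and rpr-1 had the same signal values and ranks, 28 and 33, as in the pooled list. For these genes the thresholded list thus gives no value apart from the pooled one. Read depth is unknown from these lists, so no interval is given for the value of a single peak.

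The strongest peak of ints-4 lay on the first bases of the gene. The gene (WBGene00012234, I:13663352-13674997 on ce11, plus strand, 8 exons) encodes the subunit that, in human Integrator, supports the pair of proteins forming the endonuclease. Its thresholded peak covered I:13663222-13663591, with the summit at I:13663407. That is 55 bp downstream of the annotated start, in the 5' UTR within exon 1, and at -130 bp from the start codon (a negative distance is upstream). The summit lay 20 bp downstream of the start in replicate 1 and 45 bp downstream in replicate 2. The replicates' summits were 25 bp apart, far less than the peak widths of 470 and 416 bp, so all summits fell on the same stretch of the first exon. The signal value was 8.60 in replicate 1 (rank 44), 12.8 in replicate 2 (rank 50) and 22.7 in the pooled list (rank 28). These ranks put the peak at percentile 99.1 in replicate 1, 99.4 in replicate 2 and 99.8 in the pooled list, near the top of each.

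Further into ints-4 the signal was weak. A second pooled summit lay 812 bp downstream of the start, in a coding exon, with a signal value of 4.25 and rank 3052, and neither replicate's list had a summit there. Another pooled summit, at 3832 bp and also in a coding exon, had a signal value of 2.23, below the list's median. Replicate 2 alone among the replicates had a peak in that region, at 4004 bp with a signal value of 2.51. The strongest pooled peak was thus the only one in the ints-4 window that both replicates' lists also held. The divergent gene W09C5.12 starts 1020 bp upstream of ints-4, and its window took in the same summit. The summit was nearer to the start of ints-4 than to that of W09C5.12, the only other protein-coding gene in the window.

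The strongest peak of ints-8 was not at the start of that gene but at rpr-1, in an intron. The gene ints-8 (WBGene00013021, I:13455356-13470371, minus strand) encodes a subunit that, in human and fly Integrator, helps to hold a protein phosphatase in the complex. The gene rpr-1 (WBGene00045238, I:13463955-13464207, plus strand, 253 bp) is transcribed against its host. The thresholded peak covered I:13463750-13464119 and had its summit at I:13463935. From the start of rpr-1 the summit lay at -20 bp, and from the start of ints-8 it lay 6436 bp downstream. In the longer annotated transcript of ints-8, with 10 exons, the summit fell in intron 5, which is 2023 bp long and holds all of rpr-1. In the shorter transcript, with 6 exons, the same intron is intron 1, and the summit is 911 bp past the start codon.

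In replicate 1 the summit lay 11 bp inside rpr-1, and in replicate 2 it lay at -20 bp, the same base as in the pooled list. The replicates' summits were 31 bp apart, so they did not settle whether the centre lies just before or just inside the RNA gene. The signal value was 9.28 in replicate 1 (rank 38), 12.1 in replicate 2 (rank 57) and 21.7 in the pooled list (rank 33), or percentiles of 99.2, 99.4 and 99.8. The peak thus stood close in rank to that of ints-4, above it in replicate 1 and below it in replicate 2 and in the pooled list. Replicate 1 had a second, overlapping peak 213 bp downstream of the start of rpr-1, still inside it, with a signal value of 2.63 and rank 2386. One other pooled summit lay in the ints-8 window, in a coding exon 9697 bp downstream of the gene's start, with a signal value of 2.10 and rank 14812.

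**Figure D1:**
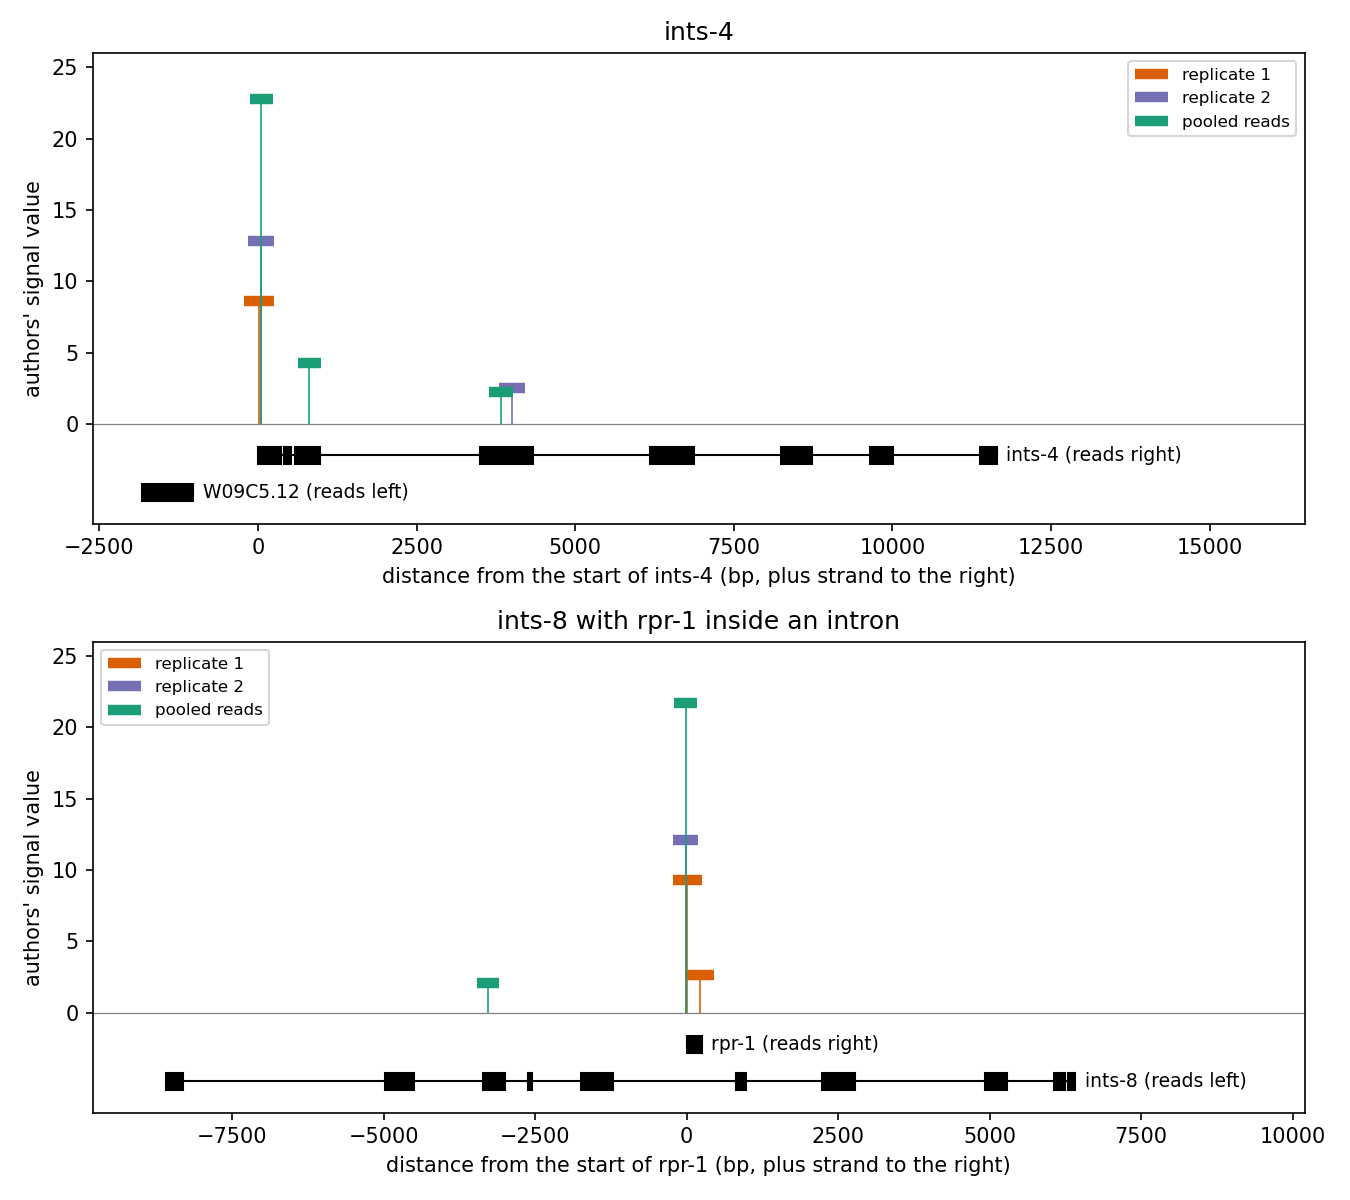
Peaks in the windows of ints-4 (top) and of ints-8 with rpr-1 (bottom). The horizontal axis is the distance in bp from the start of ints-4 or of rpr-1, the vertical axis is the authors' signal value, coloured bars are peaks at their true width with a line at the middle, and black boxes are exons. Values of differently coloured lists are not on a shared scale. The tallest pooled bars, 22.7 and 21.7, stand over the starts of ints-4 and rpr-1, and no bar stands at the start of ints-8, at the right end of its model.

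The annotated start of ints-8 itself, that of its longer transcript, held no summit. In the pooled list the nearest one lay at -5280 bp from it (signal value 3.37), beyond Y48G10A.3, a gene on the same strand whose end is 221 bp upstream of ints-8. In replicate 2 the nearest was at the same distance, -5280 bp (3.19). In replicate 1 the nearest was the weak peak inside rpr-1, 6203 bp downstream. The peak counted for ints-8 is therefore the peak at rpr-1 and gives no separate value for the protein-coding gene: 2 peaks, not 3, stand behind the 3 genes.

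The surroundings of both peaks differed. The rpr-1 peak had a pooled signal value of 21.7, against 3.37 at the strongest of the 4 other pooled peaks within 20 kb. In replicate 1 the rpr-1 peak had 9.28, and the only other peak in that range was the overlapping one of 2.63, 202 bp away. In replicate 2 the rpr-1 peak had 12.1, against 3.60 at the strongest other peak. The ints-4 peak had 22.7 in the pooled list, against 12.1 (rank 132) at the strongest of 10 others within 20 kb. The summit of that other peak was at an offset of -10595 bp from the ints-4 summit. It was intergenic, while the replicate 1 summit of this peak fell in a noncoding RNA gene. The nearest protein-coding start was that of the ribosomal protein gene rpl-31, 892 bp upstream of the pooled summit. In replicate 2 the signal value was 12.8 at ints-4 and 10.5 near rpl-31, and in replicate 1 it was 8.60 at ints-4 and 4.11 near rpl-31. The rpl-31 peak was picked out after its value was seen. The nearest thresholded peaks were 93143 bp away for ints-4 and 199472 bp away for rpr-1, where the neighbour is ints-4 itself.

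**Figure D2:**
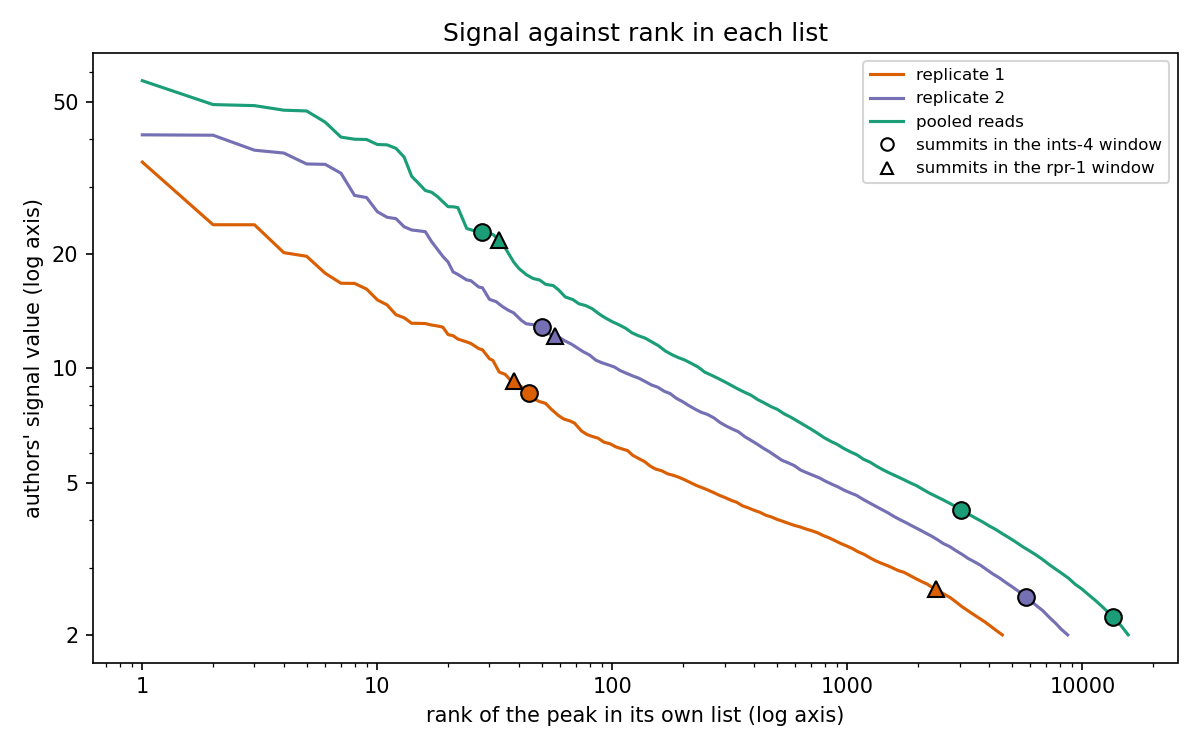
Signal value (log axis) against rank (log axis) in the replicate 1, replicate 2 and pooled lists, with circles for all summits in the ints-4 window and triangles for those in the rpr-1 window. In each list 1 circle and 1 triangle lie side by side between ranks 28 and 57, and the remaining summits of the windows lie far down the curves, at ranks of 2386 and beyond.

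Among all genes, a thresholded summit in a window of this kind was rare. It occurred at 96 of 19985 protein-coding genes (0.48%), ints-4 and ints-8 included, and at 55 of 9450 noncoding genes (0.582%), rpr-1 included. The rule used these summits, so nothing is read from the members' presence in those counts. Between the gene's start and end a thresholded summit lay in 14 protein-coding genes (0.0701%), of which ints-4 and ints-8 ranked 8 and 9 by signal value. It lay in 7 noncoding genes (0.0741%), and rpr-1 was not one of them, its summit being 20 bp before the gene (-20 bp). Summits within 100 bp of a start, as at ints-4, were found for 8 protein-coding genes (0.04%), and as at rpr-1 for 16 noncoding genes (0.169%). In contrast, 56.2% of protein-coding genes and 45.1% of noncoding genes had some summit of the pooled list in the window, so a weak pooled peak in a gene's window says little about that gene. For noncoding genes the share with some summit in the window was 16.7% in replicate 1 and 29.3% in replicate 2, in both of which rpr-1 had one.

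The 2 peaks had similar ranks in both replicates, as some thresholded peaks of chromosome X and some other autosomal ones did, and many other autosomal ones did not. Their ranks were 44 and 50 for ints-4 and 38 and 57 for rpr-1, in replicates 1 and 2. Among X peaks they were 49 and 52 at X:2364715-2365084 and 11 and 15 at X:9465806-9465897, but 500 and 21 at X:1909404-1909773. Among other peaks of chromosome I they were 52 and 54 at I:1835364-1835733, but 1001 and 35 at I:13756365-13756734. The 25 other autosomal thresholded peaks that overlapped a peak of both replicates had a median rank of 241 in replicate 1 and of 35 in replicate 2. Of those 25 autosomal peaks, 7 had a worse replicate rank of 50 or better, the value of ints-4. By the value of rpr-1, 57 or better, there were 8. The peaks I:4171999-4172368 and I:4172199-4172568 overlap and matched the same replicate peaks (ranks 26 and 37), but are counted separately in these numbers. The distances of 25 and 31 bp between the replicates' summits were close to the median of 24.5 bp over the 46 other thresholded peaks found in both replicates, which ran from 0 to 321 bp. These ranks belong to the values that chose the genes, so no test was made of them.

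**Figure D3:**
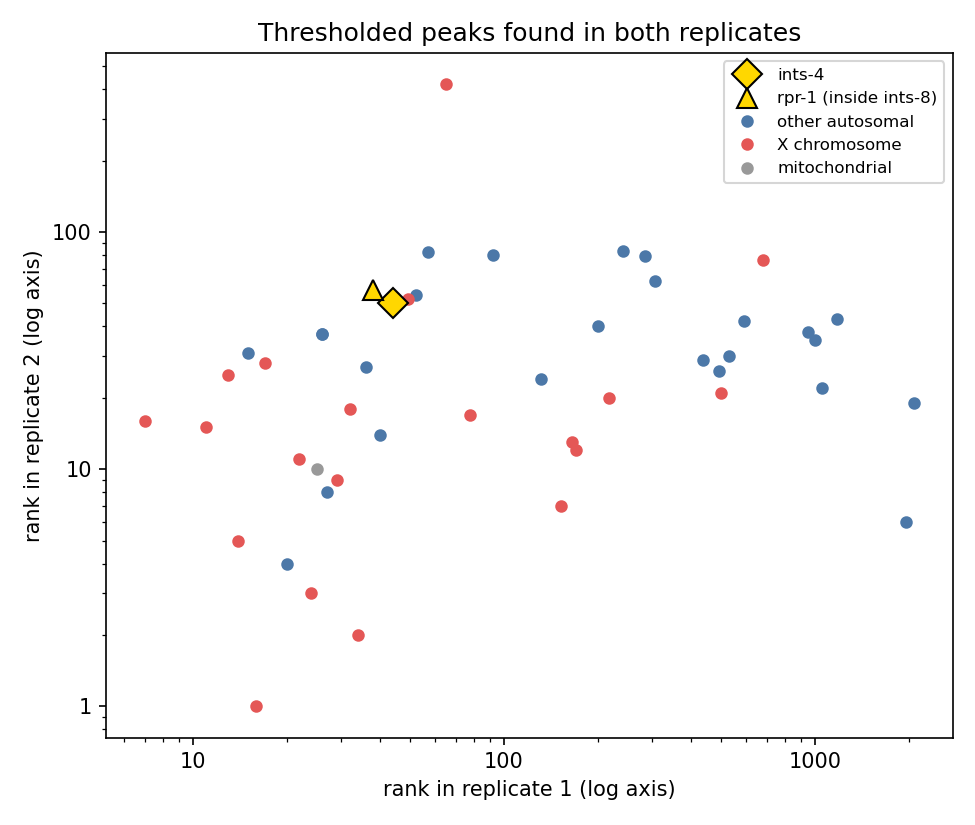
Rank in replicate 2 against rank in replicate 1 (both log axes) for the 48 thresholded peaks that overlap a peak in both replicates. The diamond (ints-4) and the triangle (rpr-1, inside ints-8) lie at ranks of 38 to 57 on both axes, and many of the other autosomal points spread to the right, at ranks over 100 in replicate 1 only.

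On chromosome I, ints-4 had the highest signal value of the 7 thresholded peaks and rpr-1 ranked 3. Over the 30 autosomal thresholded peaks they ranked 8 and 11. On chromosome I, 1 peak stood between them, with a signal value of 22.5. Its summit lay in the windows of R12E2.18 and sls-2.4, and its distance from their starts is not given here. The gene sls-2.4 is one of spliced leader RNA, which is joined to the front of many messenger RNAs in this animal.

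Base composition, which the choice of genes did not use, differed between the 2 summits. Within 50 bp of the summit the sequence at rpr-1 was 66.3% G or C. This was more than at any of the 28 other autosomal thresholded summits, which ran from 28.7 to 60.4% with a median of 51.5%. At ints-4 the value was 42.6%, inside that range and below its median. Around the annotated starts it was 59.4% at rpr-1, 48.5% at ints-4 and 37.6% at ints-8, against medians of 41.6% over 9425 noncoding and 35.6% over 19973 protein-coding gene starts. Each of these is 1 site, so no test was made, and how far base composition moves the signal value was not tested.

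Few noncoding genes nested in a protein-coding gene had a thresholded summit at their start, as rpr-1 did. A thresholded summit within 100 bp of the start was found for 0.169% of all noncoding genes, and the share within 500 bp was not counted. Of 4080 noncoding genes longer than 50 bp that lie wholly inside a protein-coding gene, 6 had one within 500 bp. These 6 stand for 4 summits in 4 host genes, and nothing about nested genes is read from their number. By signal value rpr-1 in ints-8 was the second (21.7). The first was the small nucleolar RNA gene ZK994.7 in pxn-1 on chromosome V (22.9), with a summit 2 bp past its start and 5692 bp past that of its host. That peak ranked 2082 in replicate 1 and 19 in replicate 2. At ZK994.7 the RNA gene is on the strand of its host, and at rpr-1 it is on the opposite one. The other 4 genes shared 2 summits of lower value: Y55F3BR.9 and Y55F3BR.17 in Y55F3BR.2 (16.67), and the tRNA gene WBGene00022947 and C28G1.8 in C28G1.2 (16.65). In replicates 1 and 2 the peak in Y55F3BR.2 ranked 1179 and 43, and that in C28G1.2 ranked 65 and 420. In C28G1.2 the summit was 83 bp from the start of the host as well. Only ZK994.7, rpr-1 and the Y55F3BR.2 pair thus lay far from the annotated start of the host gene. In the shorter transcript of ints-8, though, the summit is 911 bp past the start codon.

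No other Integrator gene had a thresholded summit in its window. Such a summit was found for 0.48% of all protein-coding genes, so none among so few genes is near the background. The annotation names 11 genes of the complex, and the 9 apart from ints-4 and ints-8 lie on chromosomes I, II, IV and V. With the 1000 strongest pooled peaks 1 of these 9 had a summit, where the share over all protein-coding genes was 6.79%. It was ints-13, with a signal value of 6.68 (rank 767) in a coding exon 1642 bp downstream of its start. The replicates did not share that peak: replicate 1 had no summit in the window of ints-13, and replicate 2 had only one of 2.08 at another place, 3870 bp downstream. With any summit of the pooled list, 8 of the 9 were counted (56.2% of all protein-coding genes), with a median strongest signal value of 3.08, against 3.40 over all 11239 protein-coding genes with a pooled summit. Replicate 1 gave 4 of the 9 (23.9% of all) and replicate 2 gave 6 (38.3%). The shares here and below were not matched for gene length. The window takes in the whole gene, and some of the 9 are long, such as ints-3 with 26172 bp, so no excess is read from these counts.

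Among these, the endonuclease gene ints-11 had the highest rank in a single replicate. Its strongest summit had a signal value of 5.34 in replicate 1 (rank 168, at -1073 bp), of 4.72 in replicate 2 (rank 1025, at -1408 bp) and of 4.17 in the pooled list (rank 3232, at -952 bp). All 3 summits lay upstream of ints-11, in coding exons of a neighbouring gene. Its partner in the endonuclease module, ints-9, had 3.19 in replicate 1, 3.24 in replicate 2 and 5.83 in the pooled list (rank 1144), with the summits 4735 to 4877 bp downstream of its start. At ints-2 the strongest pooled summit was 7 bp downstream of the start (3.61). Replicate 1 had its strongest at -92 bp (3.73, rank 722), and replicate 2 had its strongest 2122 bp downstream (3.30). The pooled values of ints-3, ints-5, ints-6 and ints-1 were 2.03 to 2.56, and ints-7 had no summit in any list. The highest percentile of any of these 9 was 96.3, that of ints-11 in replicate 1, while ints-4 and ints-8 had 99.1 or more in each list.

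The other genes of RNase P and of its sister enzyme RNase MRP gave a like picture. The list held 8 genes besides rpr-1, by name or by their RefSeq product, and none had a thresholded summit. The shares were 0.48% of all protein-coding and 0.582% of all noncoding genes, so this too is near the background. One noncoding gene, mrpr-1, the RNA of RNase MRP, had a summit among the 1000 strongest pooled peaks (6.44% of all noncoding genes did). Its pooled signal value was 7.42 (rank 581), with the summit 214 bp downstream of the start and so past the end of the gene, which is 186 bp long. At mrpr-1 the signal value was 2.30 in replicate 1 (rank 3314) and 3.81 in replicate 2 (rank 1981), both far lower in rank than at rpr-1. The summit at rpr-1 was thus at the gene's start in all lists, and that at mrpr-1 was just behind the gene's end.

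The genes listed for RNase P proteins had weaker peaks. The strongest pooled summit had a signal value of 5.13 and lay at -99 bp from popl-7. It also counted for the overlapping gene Y62E10A.24. RefSeq names the product of Y62E10A.24 as the p20 subunit and that of popl-7 as protein kish, so which of these genes belongs to RNase P is not settled, and their peak cannot be separated. The gene H35B03.2, named as subunit p30, had 2.82 in the pooled list, at -1376 bp from its start. In replicate 1 its strongest summit was at another place, 265 bp downstream of the start (3.38), and replicate 2 had none. The pooled values of popl-5, popl-4 and popl-1 were 2.21 to 2.59, with no summit in either replicate, and Y37E11AM.4 had no summit. In all, 7 of the 8 genes, mrpr-1 included, had a pooled summit (56.2% of all protein-coding and 45.1% of all noncoding genes). Their median was 2.82, with the shared 5.13 counted for both genes, against 3.40 over all protein-coding and 3.37 over all noncoding genes with one. Replicate 1 gave 4 of the 8 (23.9% of all protein-coding and 16.7% of all noncoding genes) and replicate 2 gave 3 (38.3% and 29.3%).

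Of the 7 SNAPc genes, 0 had a summit among the 57 thresholded or the 1000 strongest pooled peaks. The shares over all protein-coding genes were 0.48% and 6.79%, so a count of 0 among so few genes is near the background. The gene snpc-4, which encodes the DNA-binding subunit, came closest, with a pooled signal value of 6.07 (rank 1018) at -271 bp and 3.52 in replicate 1, and no summit in replicate 2. Another, snpc-3.4, had 4.64 in the pooled list, 113 bp downstream of its start. A pooled summit was present for 5 of the 7 (56.2% of all protein-coding genes), with a median strongest signal value of 2.996, against 3.40 over all.

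**Figure D4:**
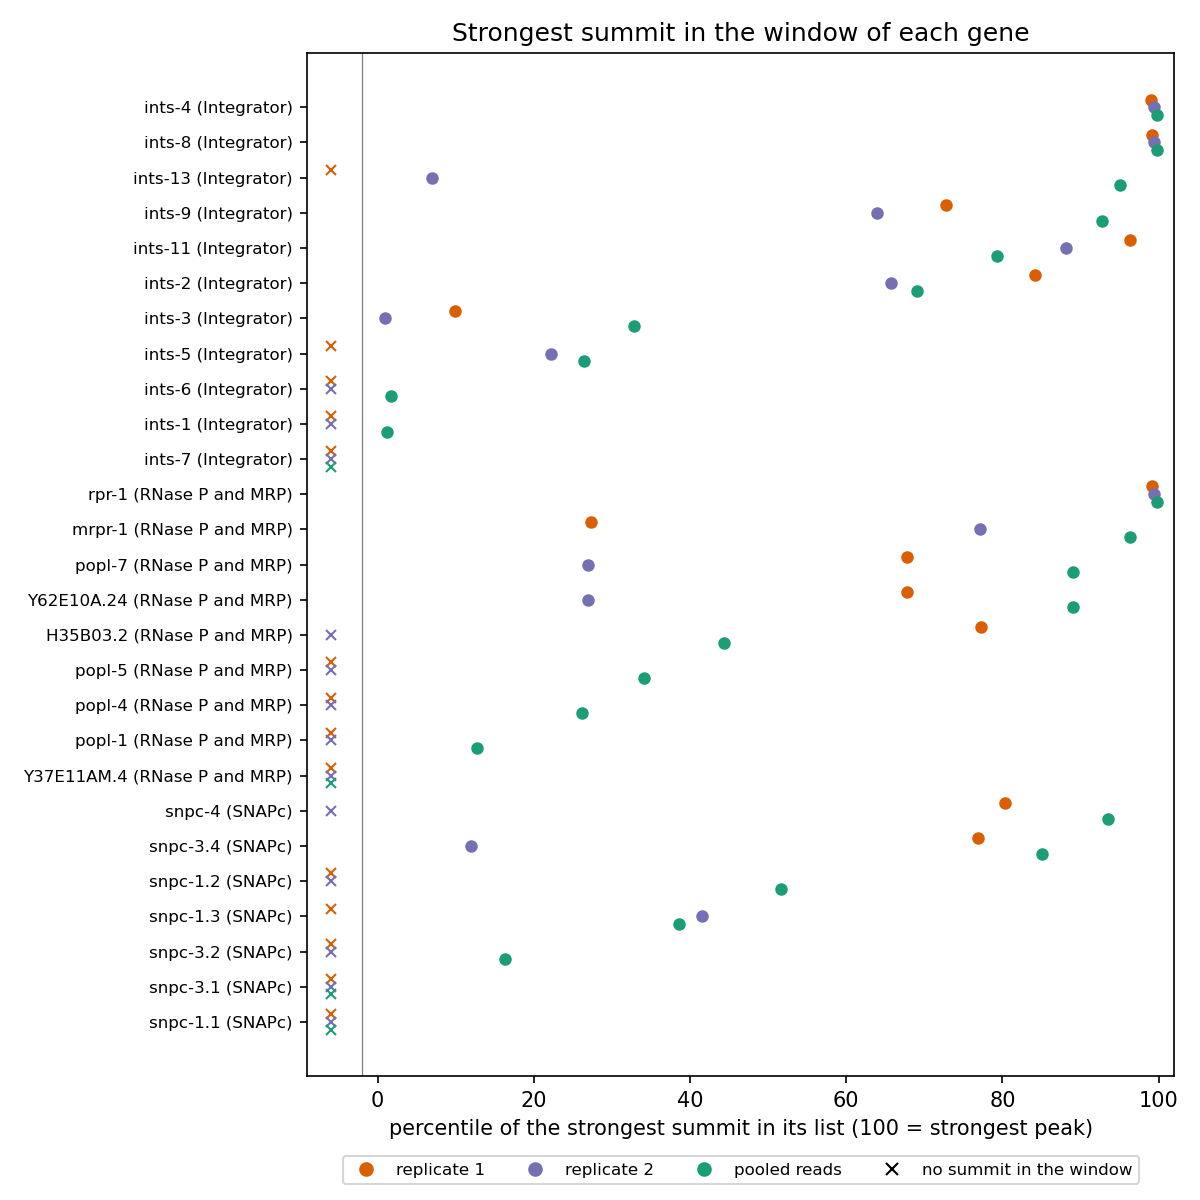
Percentile of the strongest summit in the window of each gene of the Integrator, RNase P and MRP, and SNAPc lists, in replicate 1, replicate 2 and the pooled list, with a cross where a list had no summit. The points of ints-4, ints-8 and rpr-1 lie at percentiles of 99.1 to 99.8 in all 3 lists, ints-8 and rpr-1 sharing 1 peak, and the next by its lowest point is ints-11, at 96.3, 88.2 and 79.4 in replicate 1, replicate 2 and the pooled list.

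The genes most like each of these were found by the distance between percentiles in the 3 lists, replicate 1, replicate 2 and pooled, which share reads. For ints-4 they were lgc-40 and T24D8.6 on chromosome X, which share 1 peak (8.19, 12.5 and 23.0 in the 3 lists), and then ints-8. For ints-8 they were ints-4, W09C5.12 by way of the ints-4 peak, and lgc-40. For rpr-1 they were the noncoding genes sls-2.4 and R12E2.18, which share the peak described above (11.3, 14.1 and 22.5), and the small nucleolar RNA gene C06A1.9 on chromosome II (9.04, 23.1 and 31.9). At least as high as rpr-1 in all 3 lists were 8 of the other noncoding genes, 2 of them autosomal, sls-2.4 and R12E2.18. At least as high as ints-4 were 22 other protein-coding genes, 13 of them autosomal. W09C5.12 is among these 13 only by way of the ints-4 peak itself, and genes that share a peak count more than once in these numbers.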

How the data were processed

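ChIP-seq peak lists of 2 biological replicates of 1 group were used as deposited, in narrowPeak form on ce11. Per the file names and lists of files, the authors prepared 1 list of peaks and background per replicate, 1 from pooled reads, and a thresholded optimal IDR list. The sources used here name no caller, aligner, version or IDR threshold. The signal value is a score deposited by the authors on a scale that is not stated. The −log10 q-value was deposited by the authors too, and both strongest peaks described had the upper limit of each list (2.32 in the pooled list, shared by 2831 peaks), so peaks were not ranked by it. Lists on ce10 were not used.

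Gene models were those of Ensembl 115 on WBcel235, which has ce11 coordinates. Sequence for base composition and gene products came from RefSeq on the same build. No peak passed a chromosome end. A summit is the peak's start plus its offset, written 1-based. A summit was assigned to a coding exon first, then to a UTR, a noncoding gene, an intron or none of these. Annotated starts in this animal are often trans-splice sites. The Integrator list was every ints gene (the name dic-1 had no match), the RNase P and MRP list rpr-1, mrpr-1, the popl genes and genes with such a RefSeq product (names starting with rpp had no match), and SNAPc every snpc gene. The genes named were these, the neighbours in the windows, the 3 genes nearest by percentile (genes sharing the peak left out) and hosts of nested noncoding genes. The rpl-31 peak and counts of at-least-as-high genes were added after values were seen. The members and lists were chosen with earlier results of these data known, and no test was made. The window search was tested on simulated summits: 200 of 200 planted ones were found. Python 3.11.15, pandas 2.3.3 and numpy 2.4.6 were used. Alternatives were other windows, lists, overlaps and each replicate left out.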

Additional observations from a re-analysis of the deposited data

How the results depend on the processing

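No paired analysis was possible because both samples belong to 1 group. In the replicate lists alone the summit lay 20 to 45 bp from the start of ints-4, 6405 to 6436 bp from that of ints-8 and -20 to 11 bp from that of rpr-1, and the percentile of the peak was 99.06 to 99.43 for ints-4 and 99.19 to 99.35 for ints-8 and for rpr-1. The thresholded list holds the same 2 peaks as the pooled list, with the same summits, and the midpoint of each lies 1 bp from its summit. Neither alternative could therefore move a distance by more than 1 bp, and nothing is read from them. Both other windows left the percentiles as they were. The count of protein-coding genes with a thresholded summit was 41 with a window from 500 bp upstream to the gene's end, 167 with one of 5000 bp on either side and 37 with the stronger part of the peaks, against 96. For noncoding genes these counts were 20, 98 and 20, against 55. These follow from a narrower or wider window and from fewer peaks. With as many of 1 replicate's strongest peaks, the counts were 70 to 96 protein-coding and 41 to 50 noncoding genes, and 2 to 4 Integrator genes for the 1000 strongest. Of the 57 thresholded peaks, 43 matched one of the 1000 strongest of both replicates, against 48 with the whole lists. Peak widths of 370 to 470 bp and unknown depth limit the precision of every position and value given.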
